A study of Homo sapiens with 26 samples.

Results

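The chaperonin TRiC, also called CCT, is a double ring of paralogous subunits that folds newly made cytosolic proteins, and its subunit genes TCP1, CCT2, CCT3, CCT4, CCT5, CCT6A, CCT7 and CCT8 were chosen here by gene symbol. Of these 8 genes, 7 had a probe set with that symbol among 17687 named genes, each with 1 probe set, and TCP1 was not analysed here. The samples were 26 arrays of 3 human lung cancer cell lines. NCI-H1975 (H1975, lung adenocarcinoma) had 5 arrays with 12.8 µM Omomyc and 4 with PBS, A549 (lung carcinoma) had 3 with Omomyc and 4 with PBS, and NCI-H1299 (H1299, lung carcinoma) had 5 of each. Omomyc is a small dominant-negative protein derived from a part of MYC, and it was added the day after plating to cells in RPMI1640 with serum and glutamine. PBS is the vehicle, with no second protein as a control, so what is due to Omomyc itself and to adding a protein cannot be told apart. Each line is 1 established cell line, no source used here gives how long cells were exposed, and the labels call the arrays of a group biological replicas without saying how the cultures were separated.

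Each TRiC ring holds all 8 subunits once in a fixed order, and ATP binding and hydrolysis drive the closing of a lid over the substrate. Actin and tubulin depend on TRiC for folding, the co-chaperone prefoldin delivers them, and phosducin-like proteins bind the ring. Genes of TRiC subunits are listed among MYC target genes, and a complex of fixed stoichiometry poses the question of whether its subunit transcripts change evenly when Omomyc is added.

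Values are the deposited log2 values, and differences are Omomyc minus PBS with the standard error (SE) of a limma fit to all 26 arrays after ±. Calls rest on Benjamini-Hochberg adjustment over all 17687 genes with a threshold of 0.05, and every adjusted p below comes from limma. The values of whole arrays fell into 3 clusters of 9, 10 and 7 arrays, called runs here, which no label names. Run accounted for 97.3% of the main axis of residual variation, and that axis held 33% of the residual variance. The runs were found from these same array values. A second fit took the run as a block. Counts are from the fit without a block unless the block is named. Every run held all lines and treatments, except that run 3 had no A549 Omomyc array. AKR1B10, an NRF2 target gene that is high in A549 cells, averaged 17.1 ± 0.22 (SD, n = 4) on the PBS arrays of A549, against 3.75 ± 0.27 (n = 4) in H1975 and 3.00 ± 0.41 (n = 5) in H1299. CDKN2A, which A549 cells have lost, averaged 3.33 ± 0.21 (n = 4) on the PBS arrays of A549, against 11.73 ± 0.31 (n = 4) in H1975 and 15.22 ± 0.44 (n = 5) in H1299. All member values lay between 10.66 and 15.63, above the highest mean of the 23 background probe sets, 6.69. Levels of different probe sets depend on their probes, so no subunit's level is set against another's.

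In H1975, 2 of the 7 measured subunit genes fell with Omomyc, CCT6A and CCT2, and 0 rose. Of all genes, 6.28% were called lower and 5.57% higher in this comparison. The 7 log2 differences ran from -0.83 for CCT6A to 0.64 for CCT8, which was not called. Their median was -0.18 and their SD 0.49, where the median SE of a single difference was 0.21. Over all genes the median difference was 0.00 and the SD 0.57.

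CCT6A encodes the zeta subunit. It was at 13.44, 13.51, 13.86, 13.64 and 13.13 in the H1975 Omomyc arrays and at 14.26, 14.30, 14.42 and 14.41 in the H1975 PBS arrays. Every Omomyc array lay below every PBS array, which held for 1 of the 7 members in this line and for 5.35% of all genes in the lower direction. The difference was -0.83 ± 0.19 (adjusted p = 0.00259), and -0.83 ± 0.16 blocked by run (adjusted p = 0.000296). Within runs 1, 2 and 3 it was -0.78, -0.61 and -1.28, lower in each. It was called without any 1 of the 9 arrays of the line (adjusted p of 0.00151 to 0.00984).

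CCT2 encodes the beta subunit. It was at 11.74, 11.56, 12.10, 11.51 and 11.38 in the H1975 Omomyc arrays, against 12.79, 12.70, 11.79 and 12.32 in the H1975 PBS arrays. The groups overlapped through 1 Omomyc and 1 PBS array of run 2. The difference was -0.74 ± 0.21 (adjusted p = 0.0197), and -0.75 ± 0.20 blocked by run (adjusted p = 0.00773). Leaving out PBS replicate 1 ended the call (adjusted p = 0.0906), as did leaving out PBS replicate 2 (0.0861) or Omomyc replicate 5 (0.0518). It was also lost with each array centred on its median (adjusted p = 0.0813), a scaling that moved all differences of this line up by 0.11. Within the 3 runs the difference was -1.14, -0.44 and -0.95.

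CCT8, the theta subunit gene, went the other way in H1975. It was at 12.48, 12.13, 12.97, 12.60 and 12.07 in Omomyc arrays and at 11.86, 11.64, 12.31 and 11.43 in PBS arrays. The groups overlapped, the highest PBS array being above 2 Omomyc arrays. The difference of 0.64 ± 0.22 was not called (adjusted p = 0.0546). In the fit with the run as a block it was called (0.64 ± 0.17, adjusted p = 0.00632), so that 2 members fell and 1 rose, where 9.85% of all genes were called lower and 9.37% higher. It was positive within every run, at 0.45, 0.81 and 0.64. With each array centred on its median the difference was 0.75 (adjusted p = 0.00621), and with quantile normalization of all arrays 0.66 (adjusted p = 0.00693).

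The other 4 subunit genes of H1975 were not called, with or without the run as a block. CCT3, the gamma subunit gene, differed by -0.18 ± 0.18, CCT5 (epsilon) by -0.18 ± 0.19, CCT7 (eta) by -0.13 ± 0.29 and CCT4 (delta) by -0.06 ± 0.23. The 95% confidence intervals of these differences ran from -0.55 to 0.19 for CCT3, -0.57 to 0.21 for CCT5, -0.73 to 0.46 for CCT7 and -0.53 to 0.41 for CCT4. All 4 genes differed in sign between runs, most widely CCT4 and CCT7, at -0.33, 0.51 and -0.81 for CCT4 and at -0.49, 0.30 and -0.53 for CCT7 in runs 1, 2 and 3. The CCT3 difference was -0.02 without PBS replicate 1, whose CCT3 value of 15.53 stood above the other 3 PBS arrays at 14.88 to 14.95.

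**Figure D1:**
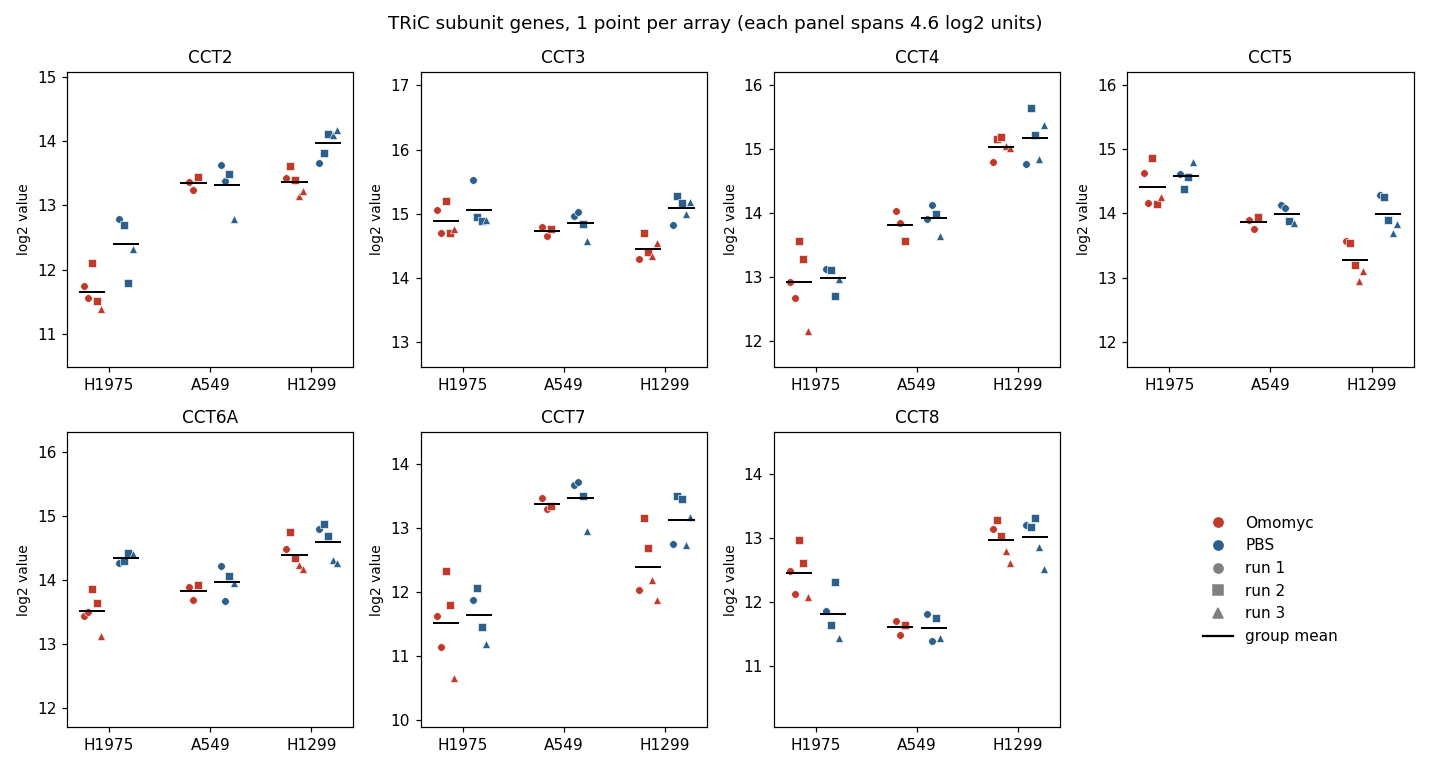
Deposited log2 value of each measured TRiC subunit gene (vertical axis) on every array, by cell line (horizontal axis), with Omomyc arrays in red to the left of PBS arrays in blue, symbols for the runs and a black line for each group mean. CCT6A in H1975 has all Omomyc arrays below all PBS arrays, while CCT8 in H1975 is displaced upward and all A549 groups overlap.

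In H1299, 2 of 7 measured subunit genes fell, CCT5 and CCT3, and 0 rose. Of all genes, 4.52% were called lower and 4.35% higher. All 7 differences were negative, from -0.73 for CCT7 to -0.04 for CCT8, with a median of -0.61 and an SD of 0.30 beside a median SE of 0.20. Over all genes the median was 0.00 and the SD 0.47.

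CCT5 was at 13.57, 13.54, 13.20, 12.95 and 13.10 in the H1299 Omomyc arrays, against 14.29, 14.26, 13.89, 13.69 and 13.83 in the H1299 PBS arrays. Every Omomyc array lay below every PBS array, which held for 3 of the 7 members (CCT2, CCT3 and CCT5) and for 4.09% of all genes in the lower direction. The difference was -0.72 ± 0.18 (adjusted p = 0.00903) and it was -0.72, -0.70 and -0.74 within runs 1, 2 and 3. It was called without any 1 of the 10 arrays of the line (adjusted p of 0.00742 to 0.034).

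CCT3 was at 14.29, 14.70, 14.40, 14.34 and 14.54 in the H1299 Omomyc arrays, against 14.82, 15.28, 15.16, 14.99 and 15.18 in the PBS arrays. The difference was -0.63 ± 0.17 (adjusted p = 0.0146), at -0.53, -0.67 and -0.65 within the 3 runs. It was not called with each array centred on its median (-0.59, adjusted p = 0.0817), and it was called without any 1 array of the line (adjusted p of 0.0122 to 0.0429).

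CCT2 was at 13.42, 13.62, 13.40, 13.15 and 13.22 in the H1299 Omomyc arrays and at 13.66, 13.81, 14.11, 14.09 and 14.18 in the PBS arrays. The groups did not overlap, and the difference of -0.61 ± 0.20 was not called (adjusted p = 0.0584). CCT7 was at 12.03, 13.15, 12.68, 12.18 and 11.87 in the Omomyc arrays and at 12.75, 13.49, 13.45, 12.73 and 13.16 in the PBS arrays. These groups overlapped, and the arrays of run 2 were the highest of their group in Omomyc. The CCT7 difference of -0.73 ± 0.28 was not called (adjusted p = 0.103), and it was called with the replicate number as a block (adjusted p = 0.0373). Same-numbered arrays of this line shared a run. Once run means were taken out, the correlation of their deviations was at most 0.046, so the numbers show no pairing beyond the run.

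With the run as a block, CCT2 (-0.61 ± 0.19, adjusted p = 0.0263) and CCT7 (-0.73 ± 0.20, adjusted p = 0.0114) were called in H1299 too, so that 4 of 7 members fell where 8.17% of all genes were called lower and 7.73% higher. In that fit CCT2 was called lower in both H1975 and H1299. CCT7 was lower in every run, at -0.72, -0.55 and -0.92, and CCT2 likewise, at -0.24, -0.45 and -0.95. The other 3 members were not called in either fit. CCT6A differed by -0.19 ± 0.17 (95% confidence interval -0.55 to 0.17), CCT4 by -0.13 ± 0.22 (-0.57 to 0.32) and CCT8 by -0.04 ± 0.21 (-0.47 to 0.38).

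In A549, limma called 0 of 7 measured subunit genes, with or without the run as a block, and 0 at an unadjusted p under 0.05. Of all genes, 1.19% were called, and 2.84% with that block. An unadjusted p under 0.05 was reached by 1543 of all 17687 genes, and by 2414 with that block. The 7 differences lay between -0.14 for CCT6A and 0.03 for CCT2, with a median of -0.10 and an SD of 0.07, which was below the median SE of 0.24. Over all genes the median was 0.04 and the SD 0.39.

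The A549 values show how little the groups stood apart. CCT6A was at 13.89, 13.69 and 13.92 in the Omomyc arrays, against 14.22, 13.68, 14.06 and 13.95 in the PBS arrays. CCT5 was at 13.89, 13.76 and 13.94 in the Omomyc arrays, against 14.13, 14.08, 13.88 and 13.85 in the PBS arrays. All 7 genes had overlapping groups, whereas 9.39% of all genes did not. The 95% confidence intervals were wide with 3 against 4 arrays: that of CCT2 ran from -0.47 to 0.53, that of CCT5 from -0.57 to 0.33, that of CCT6A from -0.58 to 0.29 and that of CCT7 from -0.78 to 0.58. With the run as a block all 7 differences were negative, from -0.23 for CCT7 to -0.02 for CCT2.

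**Figure D2:**
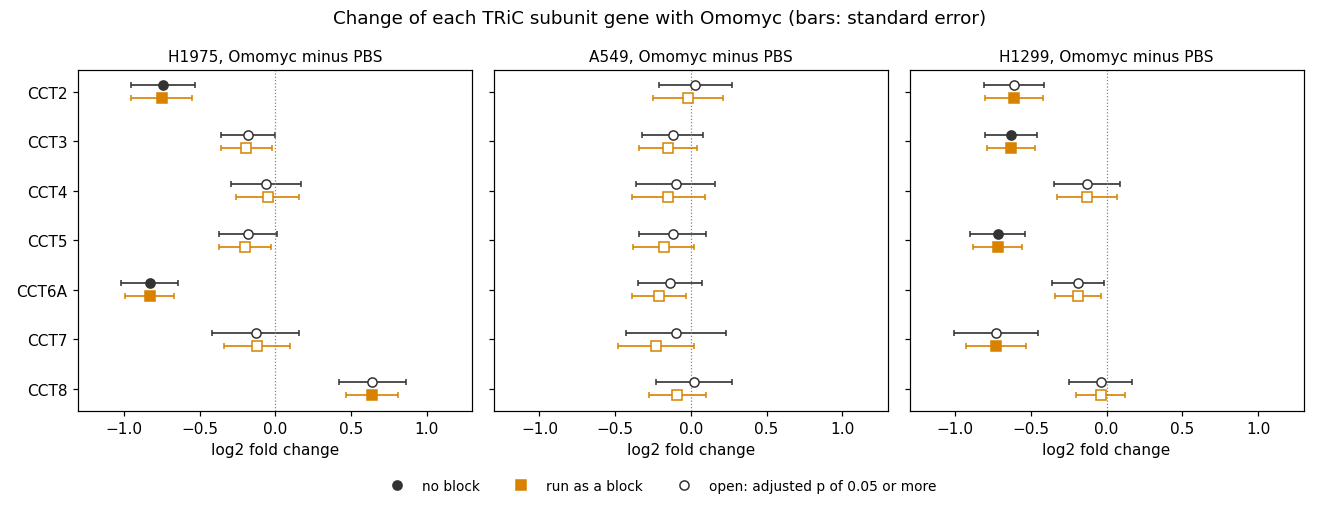
Log2 fold change, Omomyc minus PBS, of each measured TRiC subunit gene (rows) in H1975, A549 and H1299 (panels), with the standard error as bars, without a block (black circles) and with the run as a block (orange squares). Filled symbols passed an adjusted p of 0.05. CCT6A and CCT2 are lowest in H1975 and CCT8 is on the other side of 0, whereas CCT7, CCT5, CCT3 and CCT2 are lowest in H1299.

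**Figure D3:**
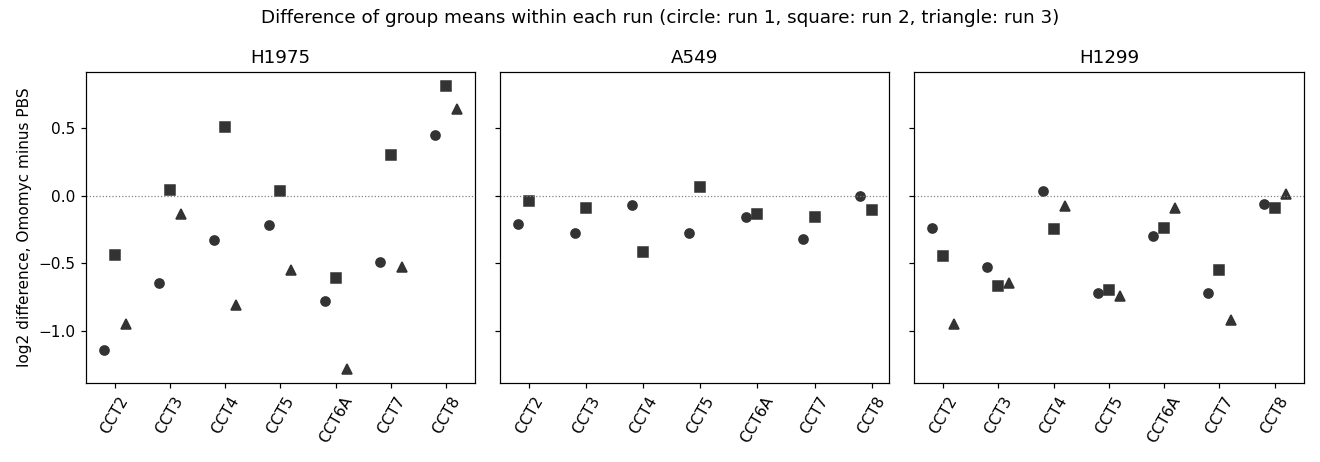
Difference of group means, Omomyc minus PBS, on the log2 scale (vertical axis) within each run for each subunit gene (horizontal axis) in the 3 lines (panels). CCT5 in H1299 lies between -0.74 and -0.70 in all 3 runs, while CCT4 in H1975 lies at -0.33, 0.51 and -0.81.

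Whether the response of a subunit gene differed between lines was tested directly. In the moderated F test of the response across lines 0 of 7 members were called, against 8.18% of all genes. CCT6A had the smallest p of the members (unadjusted 0.0263, adjusted p = 0.171) and was the 1 of 7 with an unadjusted p under 0.05. With the run as a block, CCT8 was the 1 member called (adjusted p = 0.0471), where 17.4% of all genes were, and CCT6A had an adjusted p of 0.0617. In limma's pairwise contrasts 0 of 7 were called in H1975 against A549, in H1975 against H1299 or in A549 against H1299, where 4.62%, 5.7% and 2.47% of all genes were. Members with an unadjusted p under 0.05 numbered 2, 2 and 1 in these contrasts. The share of all genes at that p was not counted for these contrasts or for the F test. The CCT6A response was lower in H1975 than in H1299 by -0.64 ± 0.25 (adjusted p = 0.164) and lower in H1975 than in A549 by -0.69 ± 0.28 (adjusted p = 0.196). The CCT8 response was higher in H1975 than in H1299 by 0.68 ± 0.30 (adjusted p = 0.229). For CCT5, -0.18 in H1975 against -0.72 in H1299 gave a difference of 0.54 ± 0.26 (adjusted p = 0.308). The members called in H1975 and in H1299 are therefore not shown to differ in response between these 2 lines.

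Promoter sequence of 4 members is shown because they cover the kinds of response seen: CCT2 fell in H1975, CCT3 fell in H1299, CCT8 was higher in H1975 with the run as a block, and CCT4 was called in no line. Each is the 150 bases before the outermost RefSeq transcript start (GRCh38.p14), 5′ to 3′ on the strand of the gene, with the CCAAT box (CCAAT or ATTGG) and the ETS core (CGGAAG or CTTCCG) in capitals.
CCT2, chr12:69585309-69585458, plus strand: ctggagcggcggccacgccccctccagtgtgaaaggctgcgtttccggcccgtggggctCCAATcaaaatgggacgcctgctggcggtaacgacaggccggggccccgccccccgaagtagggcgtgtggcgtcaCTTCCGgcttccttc
CCT3, chr1:156338293-156338442, minus strand: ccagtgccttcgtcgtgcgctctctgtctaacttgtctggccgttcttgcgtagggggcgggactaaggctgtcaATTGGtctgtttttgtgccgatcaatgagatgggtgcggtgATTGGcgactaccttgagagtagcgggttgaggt
CCT8, chr21:29073649-29073798, minus strand: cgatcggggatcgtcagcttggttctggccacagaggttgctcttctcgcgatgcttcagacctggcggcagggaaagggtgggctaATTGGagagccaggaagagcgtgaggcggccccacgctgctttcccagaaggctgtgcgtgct
CCT4, chr2:61888672-61888821, minus strand: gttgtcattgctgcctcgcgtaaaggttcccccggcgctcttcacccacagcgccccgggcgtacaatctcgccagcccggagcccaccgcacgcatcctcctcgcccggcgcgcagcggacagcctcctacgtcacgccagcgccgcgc

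RefSeq promoter windows of 300 bases, from 250 before to 50 after a start, were held for 7 members, in 9 windows, among them TCP1 and not CCT6A. CCT2 and CCT4 have 2 windows each, for different starts, and those of CCT4 overlap. The window of CCT5 began at a start inside the gene and is not shown. CACGTG, the E-box that MYC and MAX bind, was in 0 of the 9 windows and in 7.26% of all 35116 windows. The variant CACGCG, read on both strands, was in 2 of 9, those of CCT3 and CCT8, and in 11.4% of all. The ETS core was in 6 of 9 windows and in 19.5% of all, the CCAAT box in 4 of 9 and in 34.6%, and GAANNTTC, the core of the heat shock element bound by HSF1, in 2 of 9 and in 6.77%. In the stretches printed, the sequence of CCT4 holds neither a CCAAT box nor an ETS core, and that of CCT2 holds both. These matches describe letters in a window and were not tested as binding sites.

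The PBS levels of the subunit genes also differed between the lines, to unlike degrees. The 3 comparisons share PBS arrays with each other and with the Omomyc comparisons. The 7 differences had an SD of 0.64 in A549 against H1299, where that over all genes was 1.70. In H1975 against A549 these SDs were 0.90 and 1.64, and in H1975 against H1299 they were 1.00 and 1.64. The members thus varied less than genes in general. In A549 against H1299, 4 of 7 members were lower and 0 higher, where 22.5% of all genes were called lower and 19% higher. In H1975 against A549, 3 were lower and 1 higher, where 18% of all genes were called lower and 20.3% higher. In H1975 against H1299, 4 were lower and 1 higher, where 20.8% of all genes were called lower and 21.2% higher. With the run as a block the members' counts were the same, where 25.6% and 21.7% of all genes were called lower and higher in A549 against H1299, 22.5% and 22.6% in H1975 against A549, and 25.7% and 23.2% in H1975 against H1299.

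CCT4 had the widest range between lines. In PBS arrays it was at 13.13, 13.11, 12.71 and 12.98 in H1975, at 13.91, 14.13, 13.99 and 13.65 in A549, and at 14.76, 15.63, 15.22, 14.84 and 15.38 in H1299. No 2 lines overlapped. The level in H1975 was -0.94 ± 0.24 relative to A549 (adjusted p = 0.00239) and -2.18 ± 0.23 relative to H1299 (adjusted p = 4.33e-09), and that in A549 was -1.25 ± 0.23 relative to H1299 (adjusted p = 4.75e-05). CCT2 had the same order, with PBS means of 12.40 ± 0.46 (SD, n = 4) in H1975, 13.32 ± 0.37 (n = 4) in A549 and 13.97 ± 0.22 (n = 5) in H1299, and all 3 differences were called. That of A549 against H1299, -0.65 ± 0.21 (adjusted p = 0.0148), was not called without A549 PBS replicate 4 (-0.47, adjusted p = 0.0962).

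CCT7 was low in H1975 alone, at 11.88, 12.06, 11.46 and 11.19 in its PBS arrays. It was at 13.67, 13.72, 13.50 and 12.95 in the A549 PBS arrays and at 12.75, 13.49, 13.45, 12.73 and 13.16 in those of H1299. H1975 differed from A549 by -1.82 ± 0.31 (adjusted p = 1.63e-05) and from H1299 by -1.47 ± 0.29 (adjusted p = 0.000116), whereas A549 and H1299 overlapped and differed by 0.34 ± 0.29 (adjusted p = 0.392).

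CCT8 was high in H1299, at 13.20, 13.16, 13.30, 12.85 and 12.52 in PBS arrays. It was at 11.86, 11.64, 12.31 and 11.43 in the H1975 PBS arrays and at 11.81, 11.39, 11.75 and 11.43 in the A549 PBS arrays. H1975 and A549 overlapped and differed by 0.22 ± 0.23 (adjusted p = 0.529). H1299 was above both, with H1975 at -1.20 ± 0.22 (adjusted p = 3.85e-05) and A549 at -1.42 ± 0.22 (adjusted p = 3.6e-06) relative to it.

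CCT5 ran against this order. Its PBS mean was 14.59 ± 0.17 (SD, n = 4) in H1975, 13.98 ± 0.14 (n = 4) in A549 and 13.99 ± 0.27 (n = 5) in H1299. H1975 was higher than A549 by 0.61 ± 0.20 (adjusted p = 0.0168) and higher than H1299 by 0.60 ± 0.19 (adjusted p = 0.0115), and A549 and H1299 differed by -0.01 ± 0.19. Both calls were lost with each array centred on its median (0.48, adjusted p = 0.126, and 0.44, adjusted p = 0.128), which moved all differences of H1975 against A549 by -0.13 and against H1299 by -0.16. The call against A549 was also lost without H1975 PBS replicate 4 (0.54, adjusted p = 0.0559).

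CCT6A had PBS means of 14.35 ± 0.08 (SD, n = 4) in H1975, 13.98 ± 0.23 (n = 4) in A549 and 14.59 ± 0.28 (n = 5) in H1299. H1975 and A549 did not overlap, but among the lines A549 against H1299 alone was called (-0.61 ± 0.19, adjusted p = 0.00798), and with quantile normalization of all arrays H1975 against A549 was called too (0.45, adjusted p = 0.0382). CCT3 was called between no lines, with PBS means of 15.07 ± 0.31 (n = 4) in H1975, 14.86 ± 0.20 (n = 4) in A549 and 15.09 ± 0.18 (n = 5) in H1299. Probe sets can also meet transcripts of processed copies. RefSeq lists 8 pseudogenes named with a member's symbol followed by P, of CCT3, CCT4, CCT5, CCT7 and CCT8. Copies under other names were not counted, so CCT2 and CCT6A are not shown to lack them. The part of such copies in the values was not tested.

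**Figure D4:**
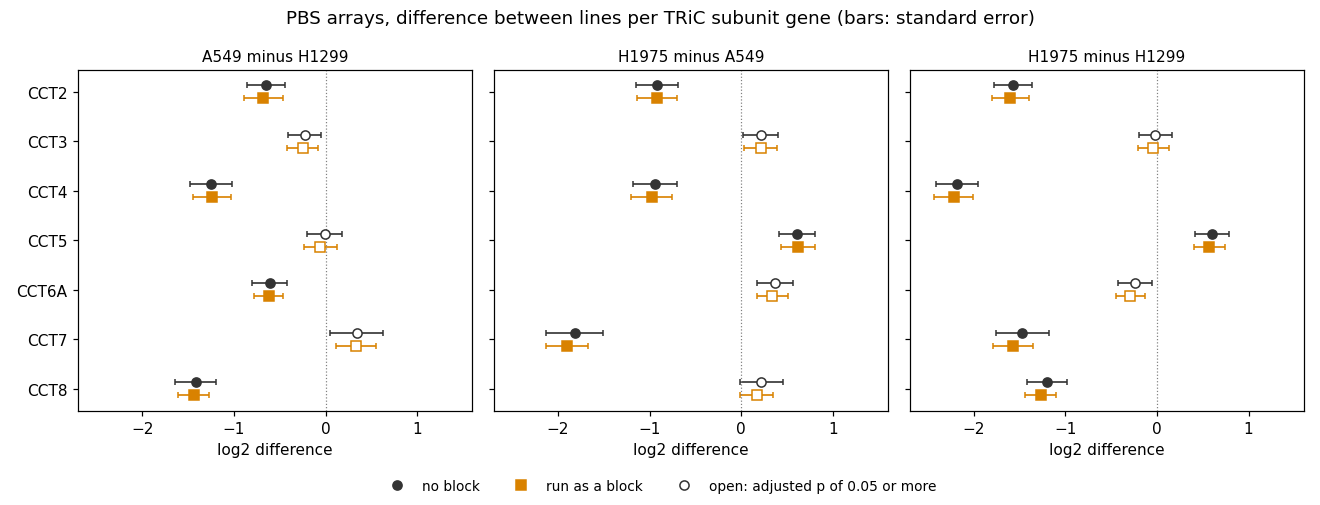
Log2 difference between the PBS arrays of 2 lines (horizontal axis) for each measured TRiC subunit gene (rows), with the standard error as bars, without a block (black circles) and with the run as a block (orange squares). Filled symbols passed an adjusted p of 0.05. CCT4 reaches -2.18 in H1975 against H1299, while CCT5 lies at 0.60 in the same comparison.

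Prefoldin, which hands unfolded actin and tubulin to the ring, had 5 of 6 subunit genes measured. In H1975, 1 rose and 0 fell (median 0.44). That gene was PFDN2, a beta-type subunit gene, at 11.72 ± 0.40 (SD, n = 5) in Omomyc arrays and 10.88 ± 0.20 (n = 4) in PBS arrays, a difference of 0.84 ± 0.26 (adjusted p = 0.0314). In A549 limma called 0 (median -0.01, 0 at an unadjusted p under 0.05). In H1299 it called 0 (median -0.50, 3 at an unadjusted p under 0.05), of which PFDN2 (-0.70 ± 0.24, adjusted p = 0.0755) and PFDN1 were lower and PFDN5 was higher (0.59 ± 0.26, adjusted p = 0.181). Such a p was reached by 3429 of 17687 genes in H1299. With the run as a block PFDN2 (adjusted p = 0.0291) and PFDN1 (-0.62 ± 0.21, adjusted p = 0.0375) were called lower in H1299. Of the 3 phosducin-like genes, PDCL3 fell in H1975 (-1.18 ± 0.27, adjusted p = 0.00363), its Omomyc arrays lying between 6.78 and 7.87 and its PBS arrays between 8.39 and 8.67. It was at -0.41 ± 0.26 in H1299 and -0.23 ± 0.31 in A549, neither called.

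Among 12 measured genes of 13 listed actins and tubulins, the main clients of TRiC, 2 fell in H1975, 0 were called in A549 and 3 fell in H1299, with medians of -0.19, -0.21 and -0.29. In A549, limma gave 2 an unadjusted p under 0.05, TUBG1 (-0.52 ± 0.18, adjusted p = 0.243) and TUBA1C (-0.46 ± 0.20, adjusted p = 0.423). The block added 1 gene called higher in H1299, the alpha-tubulin gene TUBA4A (0.70 ± 0.23, adjusted p = 0.0371). All H1299 arrays of TUBA4A lay below the highest mean of the background probe sets, 6.69. A change above background is therefore not shown for TUBA4A in this line. TUBB4B, a beta-tubulin gene, fell in H1975 (-1.04 ± 0.23, adjusted p = 0.00266), where its groups overlapped, and in H1299 (-1.47 ± 0.22, adjusted p = 4.57e-05). The alpha-tubulin gene TUBA1A fell in H1975 (-1.04 ± 0.21, adjusted p = 0.000957) and in H1299 (-0.67 ± 0.20, adjusted p = 0.0298), and TUBA1B fell in H1299 (-0.69 ± 0.15, adjusted p = 0.00275). Tubulin genes of the same family, alpha or beta, are close to each other in their coding parts, so probe sets within a family can share signal. Of 6 WD40 clients such as CDC20, limma called 0 in any line with or without the block. An unadjusted p under 0.05 was reached by 0 without it, and by 2, 1 and 2 with it in H1975, A549 and H1299. With the block 5166, 2414 and 4680 of all 17687 genes reached it in these lines. Of 6 tubulin cofactors 1 was called, TBCD in H1299 (-1.33 ± 0.22, adjusted p = 2e-04), and the block added TBCC in H1975 (-0.69 ± 0.21, adjusted p = 0.0214). Of 9 genes of the R2TP and prefoldin-like complex 1 was called, the ATPase gene RUVBL1 in H1299 (-1.54 ± 0.27, adjusted p = 0.000325). The block made that 3 in H1299, with RUVBL2 (-0.74 ± 0.24, adjusted p = 0.0345) and PDRG1 (-0.82 ± 0.24, adjusted p = 0.0185).

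Of 7 chaperonin relatives, MKKS, which encodes a chaperonin-like protein of the ciliary Bardet-Biedl group, fell in H1975 (-0.85 ± 0.26, adjusted p = 0.033) and in H1299 (-1.24 ± 0.25, adjusted p = 0.00126). CCT6B, a paralogue of CCT6A known from testis, lay between 2.42 and 5.31 on the PBS arrays of the 3 lines, below the highest background probe set. HSPD1, the mitochondrial chaperonin gene, was called in no line. Its cofactor gene HSPE1 was called with the run as a block, lower in H1975 (-0.61 ± 0.19, adjusted p = 0.0208) and in H1299 (-0.51 ± 0.18, adjusted p = 0.0456). Cytosolic heat shock chaperones had 3 of 12 measured members falling in H1975, 2 rising and 3 falling in H1299, and 0 called in A549, where limma gave 0 an unadjusted p under 0.05. The block added FKBP4 as higher in H1975 (0.50 ± 0.17, adjusted p = 0.0328) and STIP1 as lower in H1299 (-0.67 ± 0.18, adjusted p = 0.00833), both co-chaperones of HSP90. The co-chaperone gene DNAJA1 fell in H1975 (-1.53 ± 0.24, adjusted p = 3.91e-05) and in H1299 (-0.75 ± 0.22, adjusted p = 0.0305). HSPA1A fell in H1975 (-1.28 ± 0.28, adjusted p = 0.00234) and HSP90AA1 in H1299 (-0.69 ± 0.21, adjusted p = 0.0342). The 2 that rose in H1299 were BAG3 (0.60 ± 0.17, adjusted p = 0.0214) and HSPB1 (0.59 ± 0.18, adjusted p = 0.0346).

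The spread of differences within TRiC can be set beside that of other complexes of fixed stoichiometry, as a description. The 14 genes of the 20S proteasome core had SDs of 0.30, 0.31 and 0.23 in H1975, A549 and H1299 around medians of -0.06, 0.02 and -0.27, where TRiC had SDs of 0.49, 0.07 and 0.30. Of the 20S genes 1 was called, PSMA4, which fell in H1299 (-0.77 ± 0.23, adjusted p = 0.0295). The block also made PSMB7 a call, higher in H1975 (0.62 ± 0.19, adjusted p = 0.0201), and PSMA5, higher in A549 (0.85 ± 0.23, adjusted p = 0.0366). The 6 genes of the MCM2-7 helicase, a replication ring, had medians of -1.40, -0.44 and -1.66 and SDs of 0.48, 0.30 and 0.32, and 5, 0 and 6 of them fell. The block added MCM6 in H1975 (-0.85 ± 0.22, adjusted p = 0.00623), so that all 6 fell there. In A549 limma gave 2 of the 6 an unadjusted p under 0.05 without the block. The TRiC medians of -0.18, -0.10 and -0.61 were closer to those of the 20S core than to those of MCM2-7 in each line. These comparisons of lists were not tested.

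**Figure D5:**
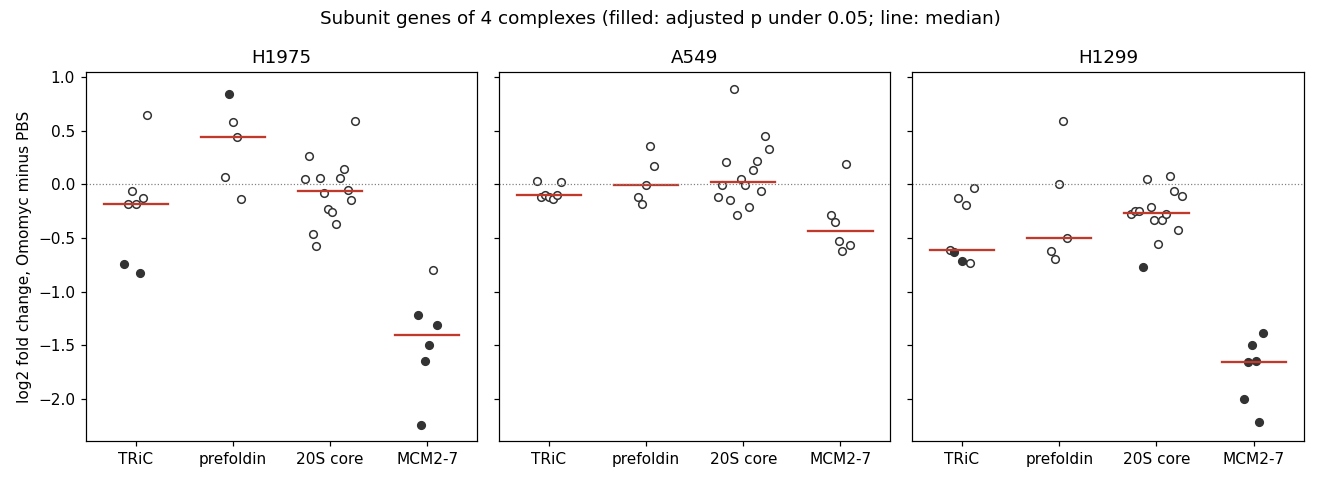
Log2 fold change, Omomyc minus PBS (vertical axis), of the measured subunit genes of TRiC, prefoldin, the 20S proteasome core and the MCM2-7 helicase (horizontal axis) in the 3 lines (panels), with 1 circle per gene, filled where the adjusted p was under 0.05, and a red line for the median. MCM2-7 has the lowest median in every line, with single genes overlapping those of the other complexes in H1975 and A549. The TRiC genes of A549 lie between -0.14 and 0.03.

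The transcripts of MYC and MAX themselves did not move the same way in the lines. MYC was at 14.65 ± 0.33 (SD, n = 5) in H1975 Omomyc arrays, against 13.68 ± 0.21 (n = 4) in PBS arrays (0.97 ± 0.20, adjusted p = 0.00119). In H1299 it was at 11.99 ± 0.08 (n = 5) with Omomyc, against 13.15 ± 0.15 (n = 5) with PBS (-1.15 ± 0.19, adjusted p = 0.000135), and in A549 it was not called (-0.23 ± 0.23). MAX fell in H1975 (-0.92 ± 0.23, adjusted p = 0.00691) and in H1299 (-0.75 ± 0.22, adjusted p = 0.0255) and was at 0.94 ± 0.26 in A549 (adjusted p = 0.0804, and 0.00383 with the run as a block). HSF1, the heat shock transcription factor gene, was called in no line.

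With each gene's mean in every run removed, the profile of the 7 subunit genes was averaged over the 26 arrays and set against all other genes by the root mean square difference. The 5 nearest non-members were HSPD1 (0.16), HNRNPH3 (0.162), RBBP7 (0.176), ZNF821 (0.179) and FUCA2 (0.19), and a flat profile lay at 0.398. Single members lay at 0.332 for CCT6A to 0.833 for CCT5 from the mean of the other members. The median of all genes against the mean profile was 0.633. The 5 nearest genes were picked as the closest of all non-members, and members were not picked and were set against another mean. Whether members lie further off than other genes can therefore not be read from these distances. HSPD1 differed between Omomyc and PBS arrays by 0.03 in H1975, 0.07 in A549 and -0.38 in H1299. Between PBS arrays it differed by -0.43 in A549 against H1299, -0.43 in H1975 against A549 and -0.86 in H1975 against H1299. The profiles hold differences between lines as well as those with Omomyc, so a near profile is not a shared response to Omomyc.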

How the data were processed

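Per the submitters' processing notes, the deposited log2 values of 26 single-colour, biotin-labelled arrays were made with RMA and Partek, without versions. RMA combines background correction, quantile normalization and summarising of probes. No source used here says whether the arrays went through it as 1 set. The 24351 features ran from 1.35 to 19.91, wider than is usual for RMA. Further scaling by the authors was not tested, and differences hold on the deposited scale. The platform annotation, updated by Entrez ID, gave 1 symbol to 17709 features (17687 genes, the highest mean probe set kept) and none to 6642, and 0 columns lacked a sample.

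limma 3.58.1 in R 4.3.3 fitted 1 coefficient per group to all arrays (lmFit, eBayes, 20 residual degrees of freedom), and was tested on simulated data. Runs are 3 clusters of the sorted values of whole arrays (average linkage). Members and lists were chosen with earlier results of these data known. The named genes are all members, the genes of the lists that were called with the smallest p (at most 2 each way per line), any prefoldin gene, MYC, MAX and HSF1, and the 5 nearest profiles. CCT6B, TUBG1, TUBA1C and the list genes called only with the run as a block are named after their values were seen. Same-numbered arrays were checked for pairing by their deviations from the group means. The correlation was 0.26 to 0.39 in the 5 pairs of H1299 and 0.11 to 0.2 in the 3 pairs of A549. It was -0.2 to 0.33 in the 4 pairs of H1975, which do not pair. Both arrays of each H1299 or A549 pair belonged to the same run. Once run means were taken out their correlations were at most 0.046, so these numbers show no pairing beyond the run. Since the labels do not name separate cultures, p-values may reflect technical spread alone, and the number of arrays limits precision. Promoter sequences are from RefSeq (GRCh38.p14); no build is named for the arrays, so no probe set coordinates are given.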

Additional observations from a re-analysis of the deposited data

Results flagged for a closer look

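Of 35 sets of values (7 subunit genes in the 5 groups of 4 or 5 arrays), 1 held an array far from the others, and chance gives about 1 in 20 such sets. CCT3 in H1975 PBS replicate 1 was at 15.53, where the other 3 PBS arrays of the line lay between 14.88 and 14.95, a gap of 0.898 of the range.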

How the results depend on the processing

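Over all alternatives, 424 of 469 values of single members in the Omomyc comparisons and 409 of 434 between PBS arrays kept their direction and their side of the threshold or were called in neither setting, as did all 644 values of pairwise differences in response, and 0 called values changed sign. In the Omomyc comparisons 23 values lost a call and 22 gained one, and between PBS arrays 24 lost and 1 gained one. The count of called members in H1975, 2, was 1 on the arrays of this line alone, 1 at an adjusted p under 0.01, and 0 on run 1, run 2 or run 3 alone. It was 3, with CCT8 as the gain, with the run as a block, quantile normalization, dim genes left out, array weights, or trend and robust. In H1299 the count of 2 was 4 with the run as a block, 1 at an adjusted p under 0.01, 0, 0 and 1 on runs 1, 2 and 3 alone, and 3 under the other 4 of those settings and with the replicate block. Runs alone hold 1 or 2 arrays a group, so fewer arrays enter each test, and a single array is assumed to vary like those of other groups. In the F test across lines the count of 0 was 1 with the run as a block (CCT8, adjusted p = 0.0471). Between PBS arrays, A549 against H1299 gave 1 and 2 in place of 4 on runs 1 and 2, H1975 against A549 gave 1 in place of 4 on runs 1 and 3, and H1975 against H1299 gave 2 in place of 5 on run 1.

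Leaving out 1 array gave counts of 1 to 3 in H1975 (1 without PBS replicate 1 or PBS replicate 2), 0 to 0 in A549, 2 to 3 in H1299, 3 to 4 in both PBS comparisons with A549, and 5 to 5 between H1975 and H1299. The SD of the 7 differences stayed at 0.45 to 0.57, 0.07 to 0.09 and 0.28 to 0.33. With the replicate block CCT2 in H1975 was at -0.67 (adjusted p = 0.0625), CCT8 in H1975 at 0.74 (adjusted p = 0.0099) and CCT7 in H1299 at -0.73 (adjusted p = 0.0373), and no other member changed call. With the replicate block together with the run, 0 members were called in H1975 (CCT6A -0.69, adjusted p = 0.101), and CCT7 in H1299 was called (adjusted p = 0.0148). The numbers do not pair the arrays of H1975, and show no pairing beyond the run in H1299 or A549. Where an alternative changed a call, the cause was not tested.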
